A study of Mus musculus with 2 samples.

Results

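The enzymes described here are 10 genes of xenobiotic and redox metabolism, chosen by name with earlier results of these data known. They were found by symbol among the 32285 genes counted: Cyp2a5, Cyp2g1, Cyp2f2, Ugt2a1, Ugt2a2, Gsta4, Gstm1, Gclm, Cbr2 and Prdx6. They were followed across sustentacular, basal, non-sensory epithelial, gland, tuft-like and neuronal cells of the adult mouse vomeronasal organ (VNO), the chemosensory tube at the base of the nasal septum. Cells came from untreated wild-type C57BL/6J males at postnatal day 60, with 5 VNOs named in the labels, and no genotype, sex or treatment was compared. The tissue was dissociated with papain and collagenase, frozen, thawed and run as 2 droplet-based single-cell libraries, so every comparison is between cell classes within the same libraries. Neither labels nor methods say how the mice were divided between the libraries, and the spread between the libraries may be technical.

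Foreign chemicals that reach the nose are handled in steps. Cytochrome P450 enzymes oxidize them with electrons passed on by P450 reductase, UDP-glucuronosyltransferases (UGTs) and glutathione S-transferases (GSTs) attach a sugar acid or glutathione, and peroxiredoxins and glutathione remove the peroxides that arise. In nasal epithelia such enzymes are known from sustentacular cells, which wrap the sensory neurons, and from glands, and they can also act on odorants and pheromones.

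Counts are of unique molecular identifiers (UMIs), each marking 1 captured mRNA molecule near its 3′ end. The libraries held 108005626 and 95442231 UMIs over 24084 barcodes, of which 10592 passed the study's limit of 5% mitochondrial UMIs and 18705 a limit of 10%. Levels below are UMIs of a gene relative to all UMIs of a class (CPM, the usual scaling of a count to its total) in library 1 and library 2. They compare classes for 1 gene, never genes with each other. Classes were built without the 10 genes or any other listed enzyme and were named from markers. At the 5% limit the sustentacular-like class held 283 cells, the basal-like 1420, the non-sensory epithelial-like 432, the gland-like 455 and the mature vomeronasal sensory neuron (VSN)-like 703. The sustentacular-like class carried Fezf2 in 91.9% and Sox2 in 92.2% of cells, but 1 of its 10 markers, Sec14l3, was at 0 UMIs, and Ermn and Lypd2 were in 4.95% and 1.41% of cells. Tuft-like cells formed a class only at the 10% limit, with 89 cells. Gnat3 was in 86.5% and Trpm5 in 84.3% of them, but Il25 was in 24.7%, Hmx2 in 4.49% and Dclk1 in 2.25%. The ionocyte markers Foxi1, Ascl3 and Coch were raised in this class too, and whether it is mixed was not tested. Each tuft-like value below comes from the 10% set, a choice made after the data were seen. A cluster of 236 cells led by Krt4 and Krt13 met the naming rule for basal, with Krt5, Krt14 and Krt15 raised. It was kept out of the basal-like class by hand. Its basal markers summed to 8219 and 8370 CPM, against 3620 and 4143 CPM in the basal-like class. Some clusters stayed unnamed, among them 212 cells with 211 from library 1, and 33 barcode sequences occurred in both libraries.

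Cyp2a5, a P450 known for the oxidation of coumarin and nicotine, was highest in sustentacular-like cells. It stood at 1579.5 and 1527.8 CPM there, at 255.8 and 255.5 CPM in non-sensory epithelial-like, 70.1 and 119.6 CPM in gland-like, 6.71 and 12.5 CPM in basal-like and 5.89 and 8.85 CPM in mature VSN-like cells. Both sustentacular-like sums lay above every sum of these other classes. The log2 fold change of sustentacular-like cells was 7.88 ± 0.18 (SE, n = 2 libraries) against mature VSN-like (edgeR quasi-likelihood, adjusted p = 9.05e-06), 6.99 ± 0.22 against basal-like (adjusted p = 3.22e-09), 2.27 ± 0.10 against non-sensory epithelial-like (adjusted p = 4.67e-07) and 2.82 ± 0.20 against gland-like cells (adjusted p = 3.27e-05). With the 10% limit the difference from non-sensory epithelial-like cells was 0.48 (adjusted p = 0.00164), with that class at 896.1 and 834.5 CPM. The 554 non-sensory epithelial-like cells let in by the wider limit had 1107.3 CPM on their own. The class was clustered anew at that limit, with Krt4 and Krt13 among its leading genes, so its make-up changed as well. In tuft-like cells Cyp2a5 stood at 124.7 and 148.2 CPM, 3.63 ± 0.18 lower on the log2 scale than in the sustentacular-like cells of the same set (adjusted p = 1.65e-18).

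Cyp2f2, a P450 known for its role in naphthalene bioactivation in mouse airway, was lower in sustentacular-like than in the other epithelial classes compared at the 5% limit. It was low in sustentacular-like cells at 17.9 and 65.8 CPM, where the libraries differed more than for any other member with over 10 UMIs in each. It was higher in gland-like (250.5 and 275.1 CPM), basal-like (331.1 and 418.3 CPM) and non-sensory epithelial-like cells (650.3 and 689.2 CPM) and, outside the compared classes, at 1025 and 1035 CPM in a cluster led by Krt4 and Krt13. At the 10% limit, where the cells were clustered anew, non-sensory epithelial-like cells stood at 1198 and 1227 CPM. Krt4 and Krt13 were among the leading genes of that class there. The cluster that took over the Krt4 and Krt13 name by overlap was led by Lgals7, Krt15 and Cdo1, at 918 and 977.7 CPM. The limits thus do not compare the same groups of cells. Neither sustentacular-like sum reached any sum of these classes. Sustentacular-like cells were lower by 3.55 ± 0.34 (log2, adjusted p = 9.8e-06) than basal-like, by 4.35 ± 0.37 (adjusted p = 1.86e-05) than non-sensory epithelial-like and by 3.90 ± 0.41 (adjusted p = 0.000203) than gland-like cells. Ciliated-like cells had 1591 and 1012 CPM at the 5% limit, where their median depth was 1083 UMIs, Foxj1 was in only 15.6% of them and non-sensory epithelial markers summed to 5320 and 7671 CPM. At the 10% limit, with Foxj1 in 82.1% of cells, they had 1209 and 1383 CPM of Cyp2f2. Ciliated-like cells were high in Cyp2a5 too, at 1072 and 797.4 CPM (5% limit) and 740.5 and 726.4 CPM (10% limit). Tuft-like cells had 64.5 and 110.3 CPM against 51.7 and 56.1 CPM in sustentacular-like cells of that set, a log2 difference of -0.51 ± 0.21 (adjusted p = 0.0546) that passed the threshold with the library as a block (-0.50, adjusted p = 0.0227).

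Cyp2a5 and Cyp2f2 lie in the same P450 gene cluster (mm10, chromosome 7), both on the plus strand, at 26835305 to 26843548 and 27119909 to 27133660, 276 kb apart. Their upstream sequences are shown because the genes are neighbours and were highest in different classes among those compared. Ciliated-like cells were high in both. Each run covers the bases 250 to 51 before the RefSeq start (GRCm38.p6, plus strand), at chr7:26835089-26835288 and chr7:27119705-27119904.
Cyp2a5: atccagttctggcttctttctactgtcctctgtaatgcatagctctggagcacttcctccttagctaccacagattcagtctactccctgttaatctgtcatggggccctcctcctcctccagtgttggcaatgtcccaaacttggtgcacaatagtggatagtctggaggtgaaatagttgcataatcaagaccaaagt
Cyp2f2: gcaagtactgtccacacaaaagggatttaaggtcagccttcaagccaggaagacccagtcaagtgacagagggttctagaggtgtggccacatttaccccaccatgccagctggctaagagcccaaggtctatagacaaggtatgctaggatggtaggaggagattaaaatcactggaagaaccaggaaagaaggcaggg
No capitals appear in either, since neither holds the motif marked below for Gclm, and neither holds GCGTG, the core letters bound by the aryl hydrocarbon receptor, on either strand of its 300-base promoter window. GCGTG was in 32.4% of all 32851 RefSeq promoters of that length.

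**Figure D1:**
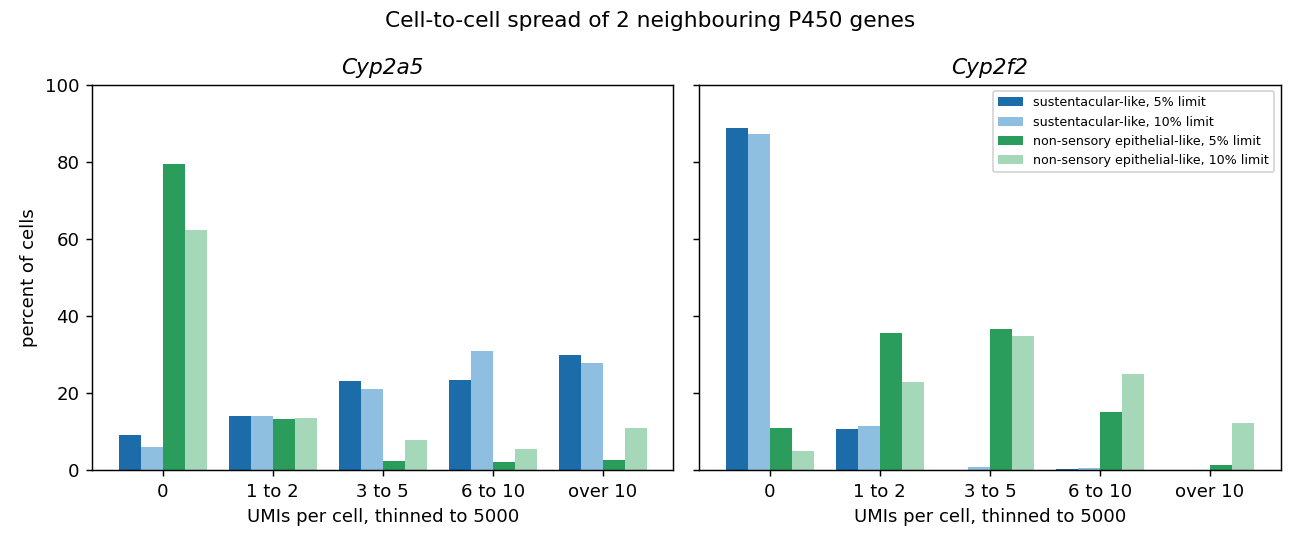
Percent of cells (vertical axis) by number of UMIs of Cyp2a5 (left) and Cyp2f2 (right) per cell, each cell thinned to 5000 UMIs, for sustentacular-like and non-sensory epithelial-like cells at both mitochondrial limits. Cyp2a5 was at 0 in 9.23% of sustentacular-like and 79.5% of non-sensory epithelial-like cells at the 5% limit, and Cyp2f2 at 0 in 88.8% and 11.0%.

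The 2 genes also differed in how they were spread over cells. To compare shares, each cell was thinned to 5000 UMIs, which left out 23 of 283 sustentacular-like and 12 of 432 non-sensory epithelial-like cells. Cyp2a5 was found in 90.8% of the thinned sustentacular-like cells (92.9% unthinned, exact binomial 95% interval 89.3 to 95.6%) and in 20.5% of the thinned non-sensory epithelial-like cells (29.6% unthinned, 25.4 to 34.2%). These intervals cover counting error only. Non-sensory epithelial-like cells were uneven in Cyp2a5, since 2.62% of them held over 10 UMIs while 79.5% held none, and at the 10% limit 10.9% held over 10. Their variance of Cyp2a5 over its mean was 16.4, against 6.66 in sustentacular-like cells. Cyp2f2 was in 89.0% of the same non-sensory epithelial-like cells with a variance over mean of 2. Macrophage-like cells, read as a gauge of free RNA, held Cyp2a5 in 3.57% and Cyp2f2 in 1.28% of cells after thinning.

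Cyp2g1, a P450 known from olfactory mucosa and located at 26808892 to 26821205 on chromosome 7, 14.1 kb from Cyp2a5, was nearly absent from sustentacular-like cells. It had 23 UMIs in all 10592 cells at the 5% limit and too few to test there. In the 10% set it had 176 UMIs, of which 79 (44.9%) lay in the 89 tuft-like cells. There it stood at 58.7 and 68.7 CPM, against 2.12 and 1.78 CPM in sustentacular-like cells from 22 and 17 UMIs. Both tuft-like sums were above every other class and cluster, and sustentacular-like cells were 4.84 ± 0.31 lower on the log2 scale (adjusted p = 2.2e-15). A UMI was found in 42.7% of tuft-like cells (exact 95% interval 32.3 to 53.6%, median 13335 UMIs per cell), in 23.5% after thinning, and in 0.0417% of macrophage-like cells (median 3034 UMIs, 0.13% after thinning). Of the tuft-like cells 82 of 89 held between 5% and 10% mitochondrial UMIs, and in these alone Cyp2g1 was at 61.8 and 73.1 CPM.

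Ugt2a2, a UGT of the olfactory epithelium, was the member whose UMIs were most concentrated in sustentacular-like cells. UMIs counted under its name may not be its own, as given below for Ugt2a1. It stood at 179.3 and 149.1 CPM there and at no more than 0.79 CPM in either library of basal-like, non-sensory epithelial-like, gland-like and mature VSN-like cells, each of which held at most 4 UMIs in a library. The libraries of sustentacular-like cells held 320 and 254 UMIs. Fitted log2 differences ran from 7.40 ± 0.29 against gland-like (adjusted p = 2.34e-06) to 8.68 ± 0.27 against mature VSN-like cells (adjusted p = 1.08e-05), and with so few UMIs in the other classes their size depends on the prior count of the fit. Against tuft-like cells, at 2.87 and 10.8 CPM from 2 and 6 UMIs, the difference was 4.61 ± 0.35 (adjusted p = 1.65e-13). Ugt2a2 UMIs were found in 73.5% of sustentacular-like cells (55.8% thinned) and 0.285% of thinned macrophage-like cells.

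Ugt2a1 cannot be read from these counts. It had 0 UMIs in the 5% set and 2 in the 10% set. In the mm10 annotation the genes share chromosome 5, minus strand, with Ugt2a1 at 87459490 to 87490871 and Ugt2a2 at 87459490 to 87482260, so both end at the same base. They have 5 exons with the same ends, and 100% of the 50-base words in the last 500 bases of Ugt2a1 transcripts occur in Ugt2a2 too. For Ugt2a2 itself, 100% of these words (902 of 902) occur in another gene, among Ugt2a1, Gm43638, Gm7646 and Ugt2a3. Cell Ranger counts only reads that match 1 gene, so the count of 0 does not show that Ugt2a1 was absent. The Ugt2a2 UMIs may leave out molecules of either gene. Since no such word is found in Ugt2a2 alone, the annotation does not show that the counted UMIs came from Ugt2a2. Shared words at the 3′ end were also common for Cyp2a5 (44.4%, with Cyp2a4) and Gstm1 (23.0%, mainly with a Gstm2 pseudogene and Gstm3), while Gsta4 and Cyp2f2 shared none. Cyp2a4 had 17 UMIs and Gstm3 had 8 in the whole 10% set, so few reads were given to those relatives.

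**Figure D2:**
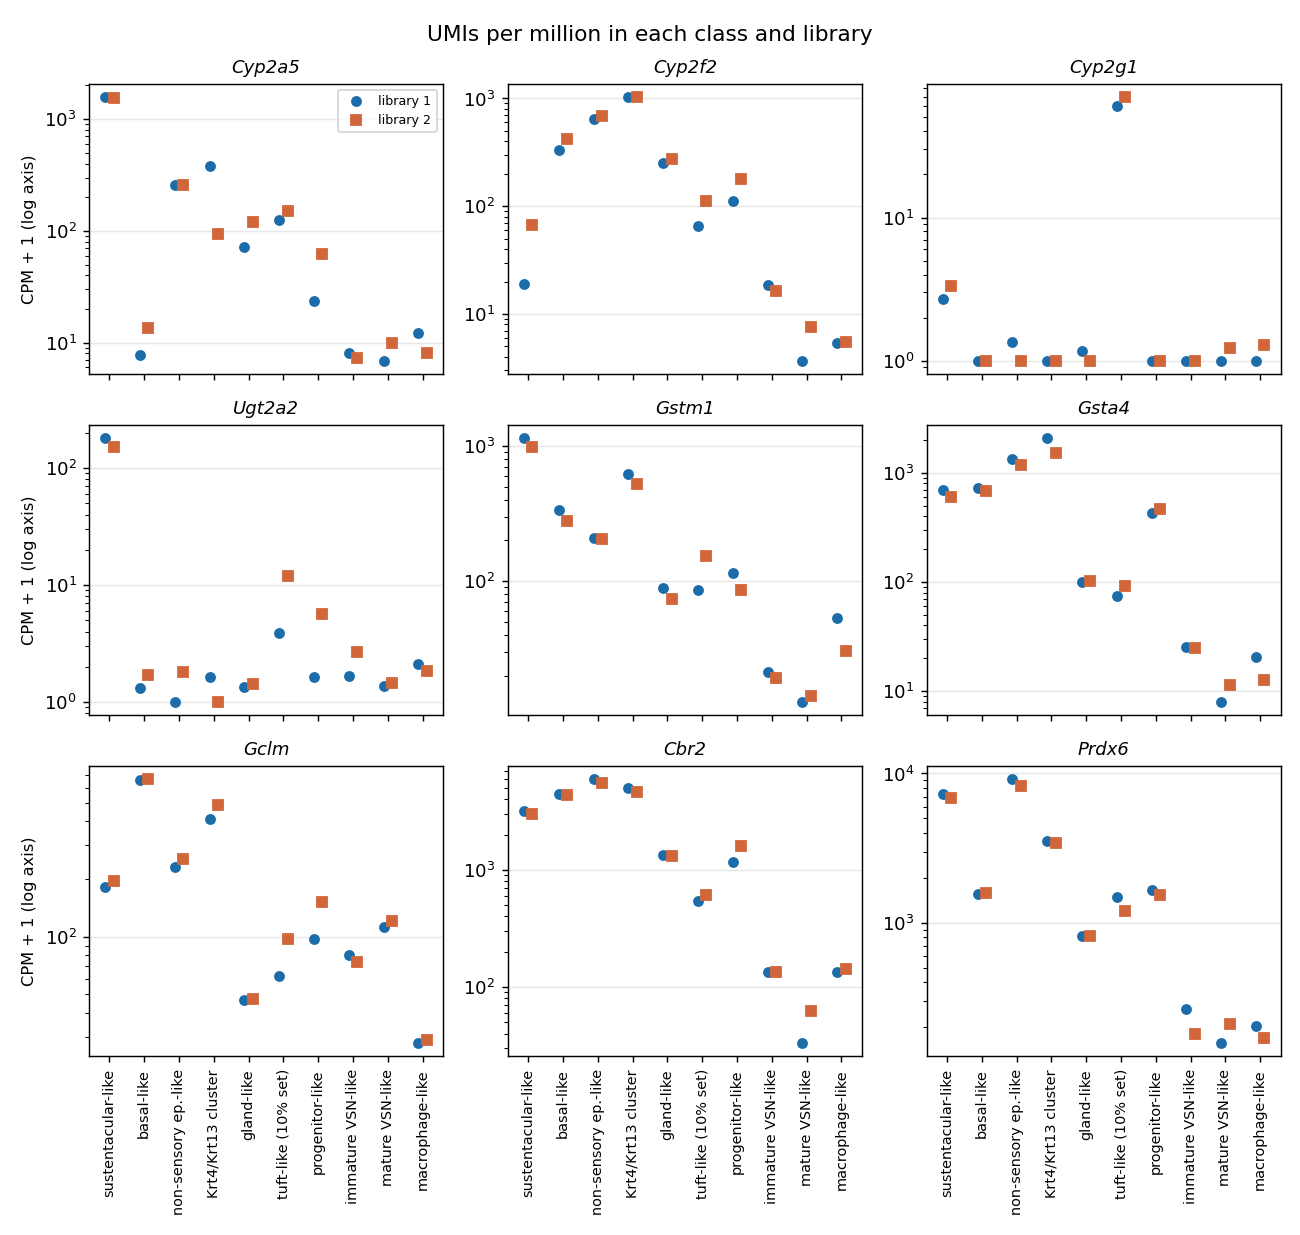
CPM plus 1 (log axis) of 9 members in each class (horizontal axis), with 1 point per library; tuft-like cells come from the 10% set and the other classes from the 5% set. Cyp2a5, Ugt2a2 and Gstm1 are highest in sustentacular-like cells, Gclm in basal-like cells and Cyp2g1 in tuft-like cells.

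The GSTs differed in where they were highest. Gstm1, a mu-class enzyme, was highest in sustentacular-like cells at 1141.3 and 978.8 CPM, above basal-like (334.3 and 275.9 CPM), non-sensory epithelial-like (208.8 and 203.9 CPM) and gland-like cells (88.6 and 72.4 CPM). Both sustentacular-like sums lay above all sums of those classes. Its log2 fold change was 1.43 ± 0.15 against basal-like (adjusted p = 1.52e-05), 2.03 ± 0.13 against non-sensory epithelial-like (adjusted p = 2.51e-06) and 2.48 ± 0.18 against gland-like cells (adjusted p = 2.97e-05). Gsta4, an alpha-class enzyme known for conjugating 4-hydroxynonenal, a product of lipid peroxidation, stood at 695.9 and 600.7 CPM in sustentacular-like cells. The sums overlapped with those of basal-like cells (730.1 and 684.2 CPM) and lay below non-sensory epithelial-like cells (1344.8 and 1174.2 CPM). The difference from non-sensory epithelial-like cells was -1.29 ± 0.13 (adjusted p = 5.16e-05). That from basal-like cells was -0.49 ± 0.13 (adjusted p = 0.00906) and missed the threshold without TMM scaling (-0.12, adjusted p = 0.324), at a resolution of 1.2 (-0.30, adjusted p = 0.0912), with the listed genes in the clustering (-0.26, adjusted p = 0.149) and in 1 fit over all classes (-0.44, adjusted p = 0.0982). Gland-like cells had 99.1 and 100.9 CPM of Gsta4 and were lower by 1.46 ± 0.14 (log2). Among named classes at the 5% limit, Gsta4 was highest in the cluster led by Krt4 and Krt13, at 2072 and 1502 CPM. Ciliated-like cells had 1240 and 1296 CPM.

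Gclm, the modifier subunit of glutamate-cysteine ligase, which makes the first step of glutathione synthesis, was highest in basal-like cells. It stood at 654.1 and 660.8 CPM there, at 230.6 and 252.7 CPM in non-sensory epithelial-like, 180.4 and 194.4 CPM in sustentacular-like, 111.7 and 119.9 CPM in mature VSN-like and 45.6 and 46.3 CPM in gland-like cells. No neighbours in this order overlapped between libraries, but the last step rests on library totals: with TMM, sustentacular-like cells were 0.84 above mature VSN-like and 0.79 above gland-like cells. Sustentacular-like cells were 2.18 ± 0.12 lower than basal-like (adjusted p = 8.85e-08), 0.70 ± 0.11 lower than non-sensory epithelial-like (adjusted p = 0.00107) and 0.84 ± 0.09 higher than mature VSN-like cells (adjusted p = 0.000667). Gclc, the catalytic subunit of the same enzyme and singled out after its values were seen, went the other way. It stood at 286.9 and 409.8 CPM in sustentacular-like, 75.5 and 112.6 CPM in basal-like and 102.9 and 125.4 CPM in non-sensory epithelial-like cells. Its log2 fold change in sustentacular-like cells was 1.52 ± 0.19 against basal-like (adjusted p = 6.25e-05) and 1.27 ± 0.16 against non-sensory epithelial-like cells (adjusted p = 0.000278).

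The promoter of Gclm is shown because it alone among the 7 members with a promoter in the RefSeq table (8 promoters in all) held TGACNNNGC, the core letters of the antioxidant response element bound by NRF2. The capitals mark the match, which lies on the minus strand and starts 134 bases before the gene's start. The run covers the bases 250 to 51 before that start, at chr3:122245307-122245506 (GRCm38.p6, plus strand).
Gclm: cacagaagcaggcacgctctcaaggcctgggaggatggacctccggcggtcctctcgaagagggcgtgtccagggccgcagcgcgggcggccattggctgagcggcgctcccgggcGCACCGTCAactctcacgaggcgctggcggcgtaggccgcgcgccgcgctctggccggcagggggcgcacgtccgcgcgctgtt
TGACNNNGC was searched on both strands and is in 12.4% of all promoters of this length, so 1 of 8 (12.5%) is near the background. GCGTG was in 3 of the 8 (37.5%), the promoter of Gclm and the 2 of Gstm1, whose windows overlap and hold the same site. A match is a description of the letters and not a bound site, and the window does not cover elements farther away.

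Cbr2, a carbonyl reductase best known from lung epithelium, was highest in non-sensory epithelial-like cells. It stood at 5912.8 and 5501.2 CPM in non-sensory epithelial-like, 4405.6 and 4309.7 CPM in basal-like, 3174 and 2975.2 CPM in sustentacular-like and 1328.4 and 1308.7 CPM in gland-like cells. Tuft-like cells had 537.4 and 603.7 CPM, 2.64 ± 0.16 lower on the log2 scale than sustentacular-like cells (adjusted p = 5.42e-16). Sustentacular-like cells were 1.23 ± 0.09 lower than non-sensory epithelial-like (adjusted p = 6.56e-06) and 0.87 ± 0.10 lower than basal-like cells (adjusted p = 2.84e-05). Against gland-like cells the answer depended on scaling. TMM, which corrects for the share that a few abundant mRNAs take, gave a log2 difference of -0.01 ± 0.12 (adjusted p = 0.935), and library totals alone gave 1.22 (adjusted p = 2.01e-07). The 9 gland markers counted, mainly lipocalins and odorant-binding proteins, took 271800 and 221700 CPM together in gland-like cells (3 of them at 0), and leaving out TMM raised the members' log2 values against that class by a median of 1.24. For the other sustentacular-like comparisons this shift was between -0.16 and 0.37.

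Prdx6, a peroxiredoxin that reduces phospholipid hydroperoxides, was highest in non-sensory epithelial-like cells at 9132.3 and 8218.3 CPM, then in sustentacular-like cells at 7269.7 and 6836.4 CPM. Basal-like cells had 1562.9 and 1589.3 CPM, tuft-like 1480.2 and 1203.8 CPM and gland-like 815.8 and 817.2 CPM. Sustentacular-like cells were 1.79 ± 0.10 higher than basal-like (adjusted p = 9.93e-08) and 1.87 ± 0.12 higher than gland-like cells (adjusted p = 1.39e-05). Their difference from non-sensory epithelial-like cells was -0.63 ± 0.09 (adjusted p = 0.00041), and it missed the threshold at a clustering resolution of 1.2 (-0.25, adjusted p = 0.0504). In the non-sensory epithelial-like class clustered anew at the 10% limit Prdx6 stood at 12520 and 11800 CPM, and the difference was -1.14.

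**Figure D3:**
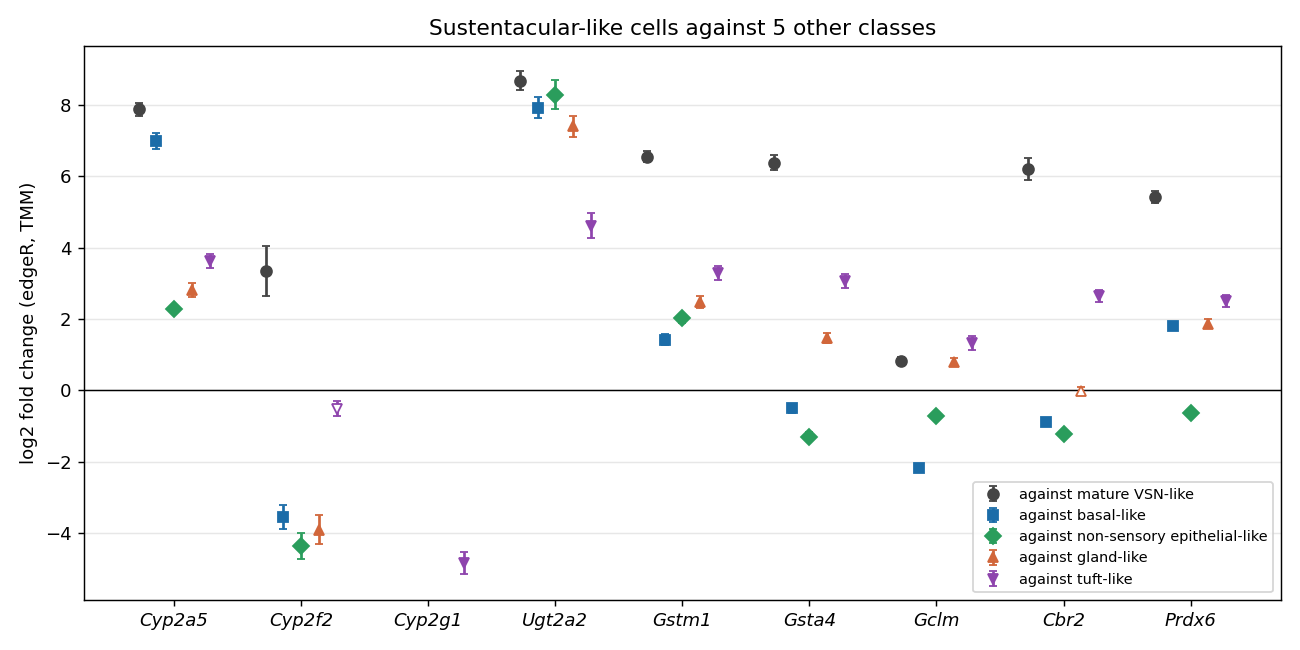
Log2 fold change (vertical axis, edgeR with TMM) of 9 members in sustentacular-like cells against 5 other classes, with standard errors from the 2 libraries; open symbols did not pass the adjusted threshold of 0.05. Against mature VSN-like cells all 8 tested members are above 0, while Cyp2f2 lies below 0 against each of the other 4 classes, with an open symbol against tuft-like cells.

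Counted by comparison, 8 of 8 tested members were higher in sustentacular-like than in mature VSN-like cells, where 28.7% of 14097 genes were called higher and 30.6% lower. The members were chosen with earlier results of these data known, so the counts here and below describe them and do not test enrichment. Against basal-like cells 4 were higher (Cyp2a5, Ugt2a2, Gstm1 and Prdx6) and 4 lower (Cyp2f2, Gclm, Cbr2 and, lost in the alternatives named above, Gsta4), where 20.0% of all genes were higher and 21.2% lower. Against non-sensory epithelial-like cells 3 were higher (Cyp2a5, Ugt2a2 and Gstm1) and the other 5 lower (background 17.6% and 17.0%). Against gland-like cells 6 were higher and Cyp2f2 was lower (20.6% and 21.1%), with Cbr2 not called. Against tuft-like cells 7 of 9 were higher and Cyp2g1 was lower (18.8% and 14.5%). Without TMM the calls over all genes shifted, to 4265 higher and 1782 lower against basal-like (2743 and 2905 with it), 3662 and 1439 against non-sensory epithelial-like (2242 and 2163) and 8509 and 822 against gland-like cells (2654 and 2727). Ugt2a1 and, at the 5% limit, Cyp2g1 did not pass the filter of 10 UMIs and are not in these counts.

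Basal-like cells were higher than mature VSN-like cells in 7 of 8 tested members (35.6% of genes higher and 34.5% lower). Gsta4, at 6.90 ± 0.17, Cbr2, at 7.11 ± 0.27, and Cyp2f2, at 6.94 ± 0.26, differed most on the log2 scale. For Cyp2a5 the difference was 0.92 ± 0.34 (adjusted p = 0.0434) and was lost under DESeq2 (0.90, adjusted p = 0.0955), without TMM (0.39, adjusted p = 0.372), in 1 fit over all classes (adjusted p = 0.276), with the listed genes in the clustering (0.057), without doublets (0.0527) and in thinned cells (0.0675), so that 6 of the 7 calls do not rest on such a choice. Cyp2a5 in basal-like cells, at 6.71 and 12.5 CPM, was at the level of macrophage-like cells (11.2 and 7.04 CPM). In the cluster led by Krt4 and Krt13, kept out of the basal-like class by hand, Cyp2a5 stood at 383.0 and 93.4 CPM. Non-sensory epithelial-like cells were higher than mature VSN-like cells in 7 of 7 tested members (31.2% of genes higher and 34.6% lower), from 1.50 ± 0.10 for Gclm to 7.68 ± 0.24 for Cyp2f2. These comparisons share the mature VSN-like sums with that of sustentacular-like cells and are not independent of it.

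In mature neurons most members were no higher than in macrophage-like cells, which were read as a gauge of free RNA. Mature VSN-like cells had 32.1 and 61.0 CPM of Cbr2, 6.96 and 10.5 CPM of Gsta4 and 11.8 and 13.3 CPM of Gstm1, while macrophage-like cells had 134.0 and 141.7, 19.7 and 11.6, and 52.3 and 29.3 CPM. Prdx6 stood at 155.3 and 209.3 CPM in mature VSN-like and at 204.1 and 169.3 CPM in macrophage-like cells. None of these 4 genes was above macrophage-like cells in both libraries, and whether their UMIs in neurons are free RNA was not tested. Macrophages may express some of these genes themselves, and the macrophage-like cells were shallower (median 4462 against 13824 UMIs). Gclm was the exception, at 111.7 and 119.9 CPM against 26.8 and 27.9 CPM. A UMI of Gclm was in 40.5% of thinned mature VSN-like and 12.3% of thinned macrophage-like cells. The other classes planned as gauges had 68.7 and 73.9 CPM of Gclm (endothelial-like) and 25.7 and 53.6 CPM (T or NK-like), so the gap was smaller against endothelial-like cells. Gclm stood at 106.9 and 111.0 CPM in apical and at 135.2 and 154.0 CPM in basal mature VSN-like cells, a difference that was not tested.

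Levels along the neuronal lineage were read as a description. Neural progenitor- or precursor-like cells had 1157.3 and 1604.3 CPM of Cbr2, 1659.5 and 1544.1 CPM of Prdx6, 429.6 and 459.3 CPM of Gsta4 and 111.5 and 178.9 CPM of Cyp2f2. In immature VSN-like cells the same genes were at 134.2 and 132.8, 264.7 and 179.0, 24.6 and 23.8, and 17.5 and 15.3 CPM. Each was lower in both libraries of the immature than of the progenitor- or precursor-like cells. Gclm stood at 96.4 and 151.5 CPM in progenitor- or precursor-like and at 79.2 and 72.5 CPM in immature VSN-like cells.

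**Figure D4:**
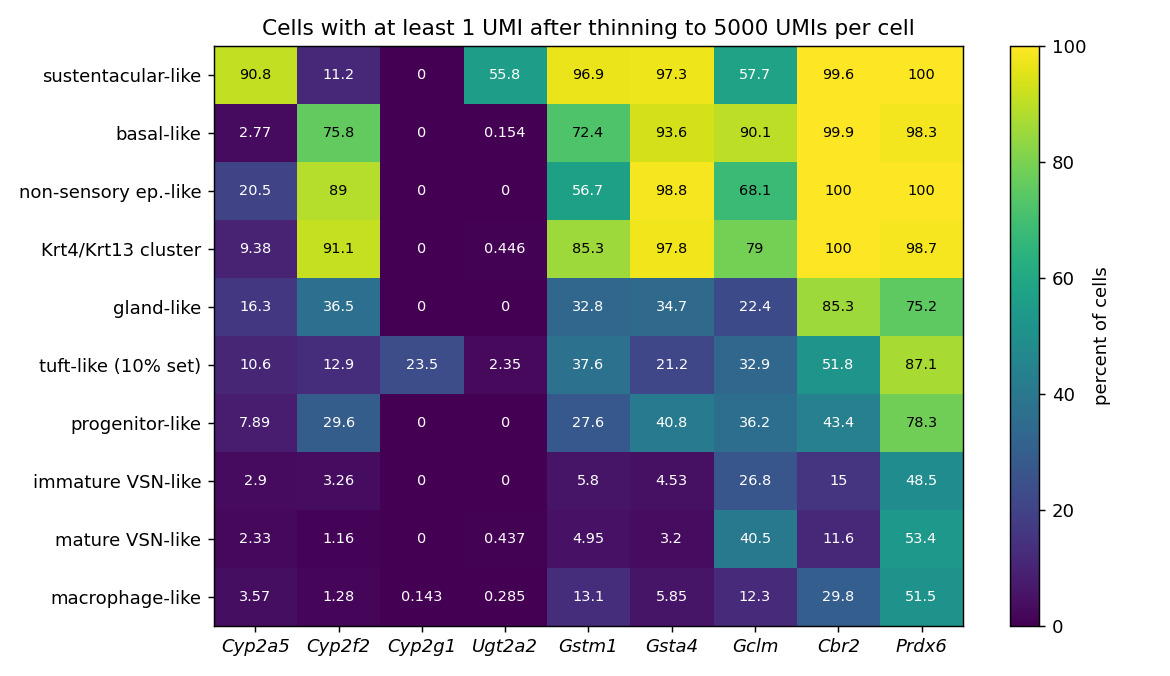
Percent of cells with at least 1 UMI of each member (columns) in each class (rows) after thinning every cell to 5000 UMIs, both libraries together; tuft-like cells come from the 10% set. Sustentacular-like cells read 90.8% for Cyp2a5 and 55.8% for Ugt2a2, and macrophage-like cells were read as a gauge of free RNA.

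Within sustentacular-like cells the members were detected together, and their correlations over cells were low. After thinning, the median cell held UMIs of 6 of the 10 genes, and 75.4% of 260 cells held 6 or more, against 48.2% of basal-like, 42.9% of non-sensory epithelial-like and 0.437% of mature VSN-like cells. At the 10% limit 963 of 1284 sustentacular-like and 469 of 828 (56.6%) non-sensory epithelial-like cells did so, both with a median of 6. Prdx6 had a median of 34 UMIs per cell (quartiles 27 and 44), Cbr2 14 (10 and 20), Cyp2a5 6.5 (3 and 11) and Gstm1 5 (3 and 7). The highest Spearman correlations over those cells were 0.386 for Gstm1 with Prdx6 and 0.332 for Cyp2a5 with Prdx6, and both fell at the 10% limit (0.24 and 0.268 over 1284 cells). Cbr2 with Prdx6, the members with the highest medians given here, stood at 0.0856 (0.1 at the 10% limit). For members at few UMIs per cell, low values cannot be told from the effect of sparse counts and are no finding.

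Most pairs of members followed each other over class sums. Across the 38 sums of named classes and libraries in the 10% set, which share libraries and depth, log2(CPM + 1) of Gsta4 correlated with Cbr2 at 0.935, Prdx6 at 0.901 and Gstm1 at 0.883, and Cyp2f2 with Cbr2 at 0.91. Cyp2a5 stood at 0.786 with Prdx6, 0.781 with Gstm1, 0.725 with Gsta4, 0.588 with Cyp2f2 and 0.553 with Ugt2a2. Pairs of Cyp2g1 were low, from 0.0659 with Gsta4 to 0.392 with Ugt2a2. Ugt2a2 also stood at 0.114 with Gclm and 0.348 with Prdx6, and the lowest value was 0.00614, for Cyp2f2 with Ugt2a2. No level for pairs of other genes is given here, so the values describe the members only. Over the 34 sums at the 5% limit, with genes under 100 UMIs left out, the patterns most like Cyp2a5 were those of Rbp2 (0.905), Tmem213 (0.888) and Muc4 (0.884), but with a pseudocount of 10 they were Gm14137 (0.938), Ly6g6e (0.929) and Vtcn1 (0.927), with none shared. The other lists below, at a pseudocount of 1, kept 1 (Cyp2f2 and Gclm) or 2 of their 3 genes at 10. For Cyp2f2 they were Met (0.946), Cxcl17 (0.945) and Fxyd3 (0.937), for Ugt2a2 Gdnf (0.902), Pcdh15 (0.898) and Fbp2 (0.896), and for Gstm1 Mgst1 (0.91), Gsta4 (0.879) and Oplah (0.878). Gsta4 was followed by Selenbp1 (0.926), Mt2 (0.925) and Ptges (0.918), Gclm by Fuom (0.904), Plscr1 (0.903) and Skp1a (0.9), Cbr2 by Wfdc2 (0.962), Dsc2 (0.942) and Six3 (0.941), and Prdx6 by Cldn4 (0.889), 4930415O20Rik (0.886) and Arc (0.882). For Cyp2g1, read in the 10% set, they were Nxph4 (0.97), A630073D07Rik (0.939) and Cryba2 (0.931).

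Other enzymes of these pathways were read from lists of 176 genes that are no members, also chosen with earlier results known. Against mature VSN-like cells 78 of 128 tested were higher in sustentacular-like cells and 17 lower, with a median log2 difference of 1.54 against -0.08 over all genes, of which 28.7% were higher and 30.6% lower. Among the conjugating enzymes 17 of 28 were higher and 2 lower (median 4.22), among the peroxidases, thioredoxins and superoxide dismutases 19 of 29 higher and 7 lower, among other phase I enzymes 18 of 24 higher and 2 lower, and among P450s and their electron donors 10 of 16 higher and 1 lower. Each of these counts includes the members that belong to the list. Ggt1, which cleaves extracellular glutathione, had 51 and 54 UMIs in sustentacular-like and 0 in mature VSN-like cells, Sult1b1, a sulfotransferase, 25 and 31 against 0, and Ugt8a, a glycosyltransferase known from myelin lipid synthesis, 32 and 46 against 0 and 1. Chac1, which degrades glutathione, went the other way with 0 UMIs against 46 and 22. Sult1d1 and Ggt5 were also lower in sustentacular-like cells, by -3.98 ± 0.27 and -3.92 ± 0.42.

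Against the other epithelial classes the lists moved in both directions. Of the 141 tested, 52 were higher and 36 lower in sustentacular-like than in basal-like cells, where 20.0% and 21.2% of all genes were called. Against non-sensory epithelial-like cells 40 of 136 were higher and 33 lower (17.6% and 17.0% of all genes). Ces1f, a carboxylesterase, had 78 and 73 UMIs in sustentacular-like cells and none in basal-like cells. Ugt8a and Gstp2 were also higher than in basal-like cells (6.47 ± 0.49 and 5.24 ± 0.96), and Ggt1, Ces1f and Ugt8a were the leading genes against non-sensory epithelial-like cells. Adh7, an alcohol and retinol dehydrogenase, had 0 UMIs in sustentacular-like cells, 396 and 338 in basal-like and 207 and 178 in non-sensory epithelial-like cells. Akr1b8, Aldh3a1 and Aldh1a3, which reduce or oxidize aldehydes, were likewise at 0 to 2 UMIs per library in sustentacular-like cells. Aldh3a1 had 530 and 369 UMIs in basal-like and Aldh1a3 178 and 97 in non-sensory epithelial-like cells. Of the regulators of these enzymes, a list that includes Nfe2l2 and Ahr, 7 of 14 were lower than in non-sensory epithelial-like cells (17.0% of all genes) and the rest did not pass the test. The same list had 3 higher and 7 lower of 14 against basal-like, 4 and 1 of 13 against gland-like and 7 and 1 of 14 against tuft-like cells, and 9 of 12 higher against mature VSN-like cells. Nfe2l2, which encodes NRF2, differed by 0.12 ± 0.11 there (adjusted p = 0.455).

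P450 reductase itself, Por, singled out after its values were seen, stood at 721.7 and 627.7 CPM in sustentacular-like, 194.0 and 155.4 CPM in non-sensory epithelial-like, 86.2 and 94.9 CPM in basal-like and 85.7 and 79.2 CPM in mature VSN-like cells. The sustentacular-like sums were the highest of these, by 1.61 ± 0.15 (log2, adjusted p = 3.7e-05) against non-sensory epithelial-like and 2.53 ± 0.13 (adjusted p = 8.77e-08) against basal-like cells. Against gland-like cells 49 of 133 listed genes were higher and 32 lower (20.6% and 21.1% of all genes with TMM, and far more higher calls without it, as given above). Nqo1, a quinone reductase, was 6.27 ± 0.25 higher, Ugt8a was 5.43 ± 0.52 higher and Gstp2 had 13 and 6 UMIs against 0, while Chac1, Cyp2b10 and Adh1 were lower. Against tuft-like cells 59 of 134 were higher and 11 lower (18.8% and 14.5% of all genes), among them Sult1e1 (5.75 ± 0.32) and Nqo1 (5.53 ± 0.37). Pon1 had 27 and 34 UMIs in sustentacular-like and 0 in tuft-like cells, whose sums are too shallow to set a fold for it. Gpx3, Sult1c1 and Aox3 were higher in tuft-like cells, where each had at most 29 UMIs in a library.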

How the data were processed

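The authors ran Chromium 3′ v3.1 libraries through bcl2fastq and Cell Ranger 4 on mm10, merged them with aggr and deposited raw UMI counts per gene and barcode; whether aggr equalised depth is not stated in the sources read. The barcode suffix gave the library. Cells with 200 to 9000 genes and at most 5% (alternative 10%) mitochondrial UMIs were kept. The submitters' processing notes also name Seurat 3.2.3; here Seurat 5.3.0 in R 4.3.3 clustered 2000 variable genes less all listed enzymes, at resolution 0.8 on 30 components. Names were given where at least 3 markers of a type were raised 4-fold. The cluster led by Krt4 and Krt13 met this rule for basal but was set apart by hand. Clusters of the alternatives took a main name at a 60% overlap. Classes come from the same cells as the tests, and genes that follow the enzymes stayed in the clustering, so p-values between classes are conditional on them. Scrublet in scanpy 1.11.5 called 172 doublets (expected rate 8%), kept unless stated.

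UMIs were summed per library and class and tested with edgeR 4.0.16 (TMM, glmQLFit, glmQLFTest) over genes with at least 10 UMIs, with Benjamini-Hochberg adjustment at 0.05 and SE from the fold change and F. Classes of 1 library share a capture and so are paired by library; the deviations correlated at 0.0247 to 0.155 across genes. Libraries differed by more than sampling noise (chi-square per degree of freedom 2.37 to 9.12). The test was checked on simulated counts. DESeq2 1.42.0 was an alternative. Thinning drew 5000 UMIs per cell.

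The members and lists were chosen with earlier results of these data known. Named genes are the members, the 3 other listed genes with the largest change in each direction per comparison, the 3 genes most like each member, markers and close relatives; Gclc and Por were added after their values were seen. Sequences are from RefSeq (GRCm38.p6); 7 members matched.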

Additional observations from a re-analysis of the deposited data

Results flagged for a closer look

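Some clusters that no comparison used held signal of these genes above the mature VSN-like level. At the 5% limit Cyp2a5 stood at 632.73 CPM in an unnamed cluster of 568 shallow cells (median 1101.5 UMIs), at 541.26 CPM in one of 303 cells with a median of 27933 UMIs, and at 655.86 CPM in one of 212 cells, 211 of them from library 1. The cluster of 303 cells held VSN markers (Omp and Rtp1) and the sustentacular marker Fezf2 together, its depth was above that of sustentacular-like (median 11150) and mature VSN-like cells (13824), and Scrublet called 1 of its cells a doublet. At the 10% limit a cluster of 1188 cells with VSN markers and a median of 35463.5 UMIs held 35.7% of all Cyp2a5, 33.4% of all Ugt2a2 and 32.0% of all Gstm1 UMIs. What these cells are was not tested.

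An unnamed cluster of 215 cells in the 10% set, led by Lcn2, Cxcl5 and Msln, held Cyp2f2 at 1937.8 CPM, with 1920.4 and 1959.8 CPM in the libraries. That lay above the 1198 and 1227 CPM of non-sensory epithelial-like cells in the same set, and the difference was not tested.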

How the results depend on the processing

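Of the alternatives for single members, 675 kept their direction and their side of the threshold, 12 lost the call, 5 gained it, 5 reversed, and 74 moved when 1 library was left out, which leaves values with no test. All 5 reversals were of Cbr2 against gland-like cells, which was not called with TMM: 1.22 with library totals (adjusted p = 2.01e-07), 0.0216 in 1 fit over all named classes, 0.110 at the 10% limit, 0.00152 with the listed genes in the clustering and 0.00971 without doublets. The block on library changed 1 member call: with the replicate block 2 members were lower than in tuft-like cells, Cyp2f2 being the second, and the same count of 2 came without TMM, with filterByExpr, with the listed genes in the clustering and without doublets. In 1 fit over all classes 2 members were lower than in basal-like cells, since Gsta4 (-0.44, adjusted p = 0.0982) and Cbr2 (-0.81, adjusted p = 0.0736) missed the threshold at nearly the same size.

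Counts over all genes moved by over 1.5 times, or passed that line in 1 direction, as follows. Against basal-like cells DESeq2 called 3620 genes (1760 lower), library totals gave 4265 higher and 1782 lower, and the 10% limit gave 4190 higher. Against non-sensory epithelial-like cells DESeq2 called 2523 (1312 higher, 1211 lower), library totals gave 3662 higher and 1439 lower, the 10% limit called 7294 (3798 and 3496) and thinned cells 2834 (1461 and 1373). Against gland-like cells DESeq2 called 3387 (1676 and 1711), library totals 9331 (8509 and 822) and thinned cells 2584 (1325 and 1259). Against tuft-like cells thinned cells gave 2730 calls (1606 and 1124). Apart from the effect of fewer UMIs in thinned cells, the causes were not tested. The non-sensory epithelial-like class held 432 cells, but 776 with the listed genes in the clustering and 763 at a resolution of 1.2. With 2 libraries and 283 sustentacular-like cells, members at a few UMIs per library were not resolved.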

Other observations

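The other P450 genes of the chromosome 7 cluster held few UMIs. In the 10% set Cyp2a12, Cyp2a22, Cyp2b9 and Cyp2b13 had 0 UMIs, Cyp2b10 had 59 and Cyp2a4 had 17, against 80655 for Cyp2a5 and 41988 for Cyp2f2. Cyp2s1 was the next, with 907 UMIs, at 104 CPM in ciliated-like, 9.79 CPM in basal-like and 4.47 CPM in sustentacular-like cells.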
